A study of Mus musculus with 6 samples.

Results

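The 10 Krüppel-like factor genes Klf2, Klf3, Klf4, Klf5, Klf6, Klf7, Klf9, Klf10, Klf11 and Klf13 were followed through a list of accessible chromatin intervals from Ezh2-null mouse fibroblasts. They were taken by name and placed by RefSeq coordinates on mm10, and they are 10 of 21887 protein-coding genes placed on the autosomes, X or Y. The RefSeq table holds 17 Klf genes in all, and the other 7 are given for comparison. The cells were a mouse embryonic fibroblast line, called line A or C2, immortalised with c-myc. ATAC-seq, in which a transposase cuts and tags open chromatin, was run on 3 groups with 2 samples each. These were wild-type cells, Ezh2 -/- cells, and Ezh2 -/- cells given Ezh2 back from the retroviral vector pMSCV-Ezh2, all carrying the c-myc immortalisation. Ezh2 is the methyltransferase of Polycomb repressive complex 2. Only the Ezh2 -/- list is used here, so no value compares genotypes. It gives 1 value per interval and none per sample, so no replicate error can be given. Its name gives only the genotype, and which of the 2 Ezh2 -/- samples entered it, and its read depth, are unknown.

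Krüppel-like factors are transcription factors whose conserved zinc fingers at the carboxyl end bind GC boxes and CACCC sequences in DNA. The family is usually sorted by the cofactors that the rest of the protein recruits. Klf3, Klf8 and Klf12 bind the corepressor CtBP. Klf1, Klf2, Klf4, Klf5, Klf6 and Klf7 are mostly described as activators, though several also repress. Klf9, Klf10, Klf11, Klf13, Klf14 and Klf16 bind the corepressor Sin3. In fibroblasts and other mesenchymal cells several members are serum-, stress- or TGF-beta-responsive genes, and Klf4 is 1 of the classical factors for reprogramming fibroblasts to pluripotency.

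All 10 genes had an accessible interval within 1 kb of a gene end, against 47.4% of all protein-coding genes, and in each case a single interval. Each also had an interval over the gene itself, against 52.8% of all protein-coding genes. The genes were chosen with earlier results of this list known, so the count of 10 describes these genes and is no estimate for the family. Over all 17 Klf genes the count was 13 (76.5%). For the 8 members with a RefSeq promoter entry, the start site of transcription lay inside the interval, as it did for 43.4% of all genes with an entry. The point of maximum signal lay within 500 bp of that start at 8 of 8 members, against 83.2% of all genes whose start was covered. It lay upstream of that start at 7 of 8, against 65.1%. At Klf7 that start is inside the gene span, and the maximum lay inside the span too.

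The 250 bases before the start site are shown for the 5 genes whose maximum falls inside that stretch, and for Klf3, which has the most GC boxes. Sequences are from RefSeq (GRCm38.p6, the assembly behind mm10) and read 5′ to 3′ towards the start on the gene's own strand. Capitals mark matches on either strand to the GC box GGGCGG, to the sequence CACCC, to the CCAAT box and to the E box CACGTG, and neighbouring matches can run together.
Klf2, chr8:72318812-72319061, plus strand: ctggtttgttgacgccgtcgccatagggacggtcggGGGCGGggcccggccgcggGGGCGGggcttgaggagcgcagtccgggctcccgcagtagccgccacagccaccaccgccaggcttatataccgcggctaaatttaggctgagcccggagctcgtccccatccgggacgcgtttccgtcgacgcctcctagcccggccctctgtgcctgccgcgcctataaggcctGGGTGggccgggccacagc
Klf6, chr13:5861239-5861488, plus strand: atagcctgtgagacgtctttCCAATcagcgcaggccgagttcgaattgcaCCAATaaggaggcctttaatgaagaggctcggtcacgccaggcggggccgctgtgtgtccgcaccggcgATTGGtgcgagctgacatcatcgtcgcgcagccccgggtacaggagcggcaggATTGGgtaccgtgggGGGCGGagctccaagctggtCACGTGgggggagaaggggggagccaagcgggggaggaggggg
Klf9, chr19:23140976-23141225, plus strand: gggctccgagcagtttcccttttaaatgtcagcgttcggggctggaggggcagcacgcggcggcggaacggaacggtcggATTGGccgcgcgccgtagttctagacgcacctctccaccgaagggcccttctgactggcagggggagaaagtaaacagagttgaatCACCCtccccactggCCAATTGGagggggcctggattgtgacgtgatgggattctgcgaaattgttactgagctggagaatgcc
Klf11, chr12:24651121-24651370, plus strand: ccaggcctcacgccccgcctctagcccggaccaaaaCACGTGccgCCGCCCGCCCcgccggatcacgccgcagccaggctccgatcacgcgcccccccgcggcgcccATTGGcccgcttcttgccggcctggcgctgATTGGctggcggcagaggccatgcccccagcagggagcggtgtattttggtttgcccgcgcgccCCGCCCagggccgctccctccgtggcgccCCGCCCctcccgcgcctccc
Klf13, chr7:63938916-63939165, minus strand: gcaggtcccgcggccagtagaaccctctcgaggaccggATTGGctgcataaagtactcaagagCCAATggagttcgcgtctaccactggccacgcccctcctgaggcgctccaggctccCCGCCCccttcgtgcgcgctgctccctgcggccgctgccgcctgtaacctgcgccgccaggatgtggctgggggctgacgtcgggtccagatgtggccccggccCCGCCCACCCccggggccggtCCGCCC
Klf3, chr5:64803271-64803520, plus strand: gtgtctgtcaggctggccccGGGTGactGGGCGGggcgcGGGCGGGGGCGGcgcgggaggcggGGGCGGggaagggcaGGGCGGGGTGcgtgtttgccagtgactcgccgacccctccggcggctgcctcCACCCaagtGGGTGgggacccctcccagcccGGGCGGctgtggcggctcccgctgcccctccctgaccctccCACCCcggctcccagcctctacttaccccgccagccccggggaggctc

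In these sequences, counted from base 1 at the left, the maximum lay at bases 77 to 84 in Klf2, past both of its GC boxes. In Klf6 it lay at bases 25 and 26, on the last base of a CCAAT box and the base after it. The maximum of Klf9 covered bases 53 to 72 and that of Klf11 was the single base 117. In Klf13 it reached from base 1 to base 112 and beyond the left edge of the stretch, over both CCAAT boxes and ahead of the GC boxes. The maximum is where the coverage was highest, which is not the position of a bound factor.

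GC boxes stood in this stretch at 7 of the 8 members, Klf9 being the exception. They stood in 42.3% of all 17492 protein-coding genes with a promoter entry and in 64.9% of the 7592 whose start lay in an interval. Klf3 held 6 GC boxes, Klf4 and Klf11 held 4 each, Klf13 held 3, Klf2 held 2, and Klf6 and Klf7 held 1. The CACCC sequence, the other site that the family's zinc fingers bind, was present at 5 members (Klf2, Klf3, Klf7, Klf9 and Klf13), against 53.2% and 57.5% in the same backgrounds. Each of the 8 members held a GC box or a CACCC, as did 69.6% of all genes with an entry and 83.7% of those whose start lay in an interval. Klf3 carried 5 CACCC matches and Klf7 carried 3.

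CCAAT boxes, a common element of proximal promoters, were found at Klf6, Klf9, Klf11 and Klf13 (background 36.2%, and 37.5% with the start in an interval). Klf6 held 4 of them. The E box CACGTG, the sequence that Myc and its partner Max bind, was found at Klf4, Klf6 and Klf11, against 6.52% of all genes with an entry and 8.96% of those whose start lay in an interval. The TATA box TATAAA was found at 0 of 8 members (12.3% and 5.10%). The AP-1 site TGACTCA (4.05% and 2.63%) and the CArG box of serum response factor (1.38% and 1.11%) were likewise at 0 of 8. Both strands were searched, and an absent match says only that these letters are not in this stretch.

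GC content over the stretch ran from 59.2% at Klf7 and 59.6% at Klf9 to 76.8% at Klf11 and 78.4% at Klf3. The median was 55.2% over all genes with an entry and 61.6% over those with the start in an interval. Klf2 (71.2%), Klf4 (74.0%) and Klf13 (71.6%) were also GC-rich, and Klf6 stood at 64.8%. CpG dinucleotides numbered 32 at Klf4 and Klf11, 29 at Klf2 and only 13 at Klf7, with a median of 18 over genes whose start lay in an interval. The 2 genes of lowest GC content, Klf7 and Klf9, had 1 and 0 GC boxes, and Klf6 also had 1. A GC box holds only G and C, so its count is not independent of GC content.

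**Figure D1:**
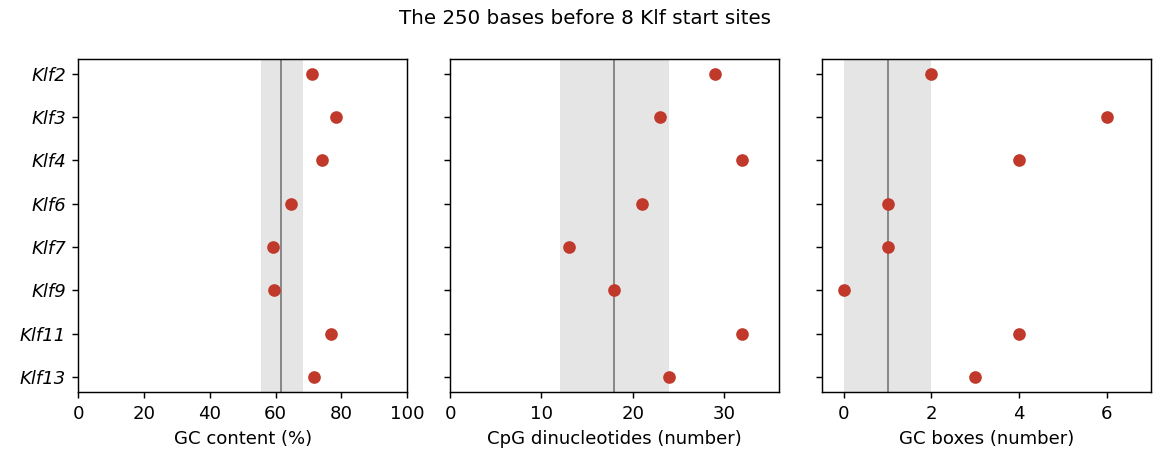
GC content in percent, number of CpG dinucleotides and number of GC boxes in the 250 bases before the start site of 8 Klf genes (points). Grey bands are the quartiles and grey lines the medians over 7592 protein-coding genes whose start lies in an interval; Klf3 is highest in GC content and GC boxes, and Klf9 has 0 GC boxes.

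The intervals at the 10 genes were all wider than the median interval of the list, which was 2453 bp. Their widths ran from 2648 bp at Klf6 to 7844 bp at Klf7. Klf6 (percentile 57.5) and Klf5 (2845 bp, percentile 64.0) were near the middle of the list. Widths at the ends of other genes were not compared. Each interval carries a total signal, read as the area under the coverage of the called region, and a maximum signal, read as its height, both in the authors' unit. Over the 10 genes the median total signal was 72160.5 and the median maximum 50, against 39334.5 and 39 over the genes of the whole list with a gene-end interval. Klf5 and Klf6 had totals below that gene-end median, and Klf3, Klf4 and Klf5 had maxima below it. By total signal the members' median percentile among 19215 called regions was 90.2, but it was 84.5 among called regions at gene ends. The percentiles of signal given for single genes below are among all called regions.

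**Figure D2:**
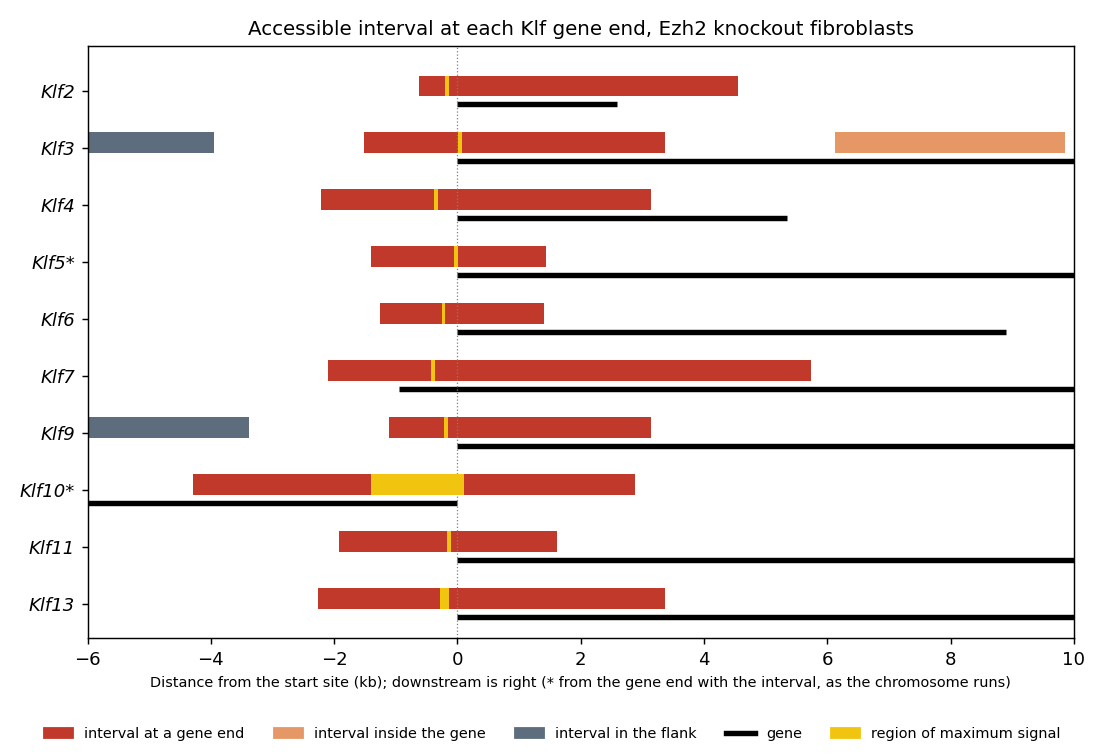
The interval at each of the 10 Klf genes (red) with its region of maximum signal (yellow) and the gene (black), by distance in kb from the RefSeq start site, downstream to the right. Klf5 and Klf10 (asterisks) are drawn as the chromosome runs from the gene end with the interval; maxima narrower than 60 bp are widened to be seen, and all 10 intervals cover the zero line.

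Of the CtBP-binding repressors, Klf3, which acts in fat, B cells and erythroid cells, was the only member. Klf3 lies at 64803521 to 64832901 on chromosome 5, and its interval at 64802000 to 64806894 had a total signal of 89397 (percentile 94.2) and a maximum of 36 (percentile 70.3). The maximum was 38 bp downstream of the start, the only 1 of the 8 not upstream. This called region was deposited as 2 pieces, and the other piece, of 2052 bp, lay 3951 bp upstream of the gene. The total thus belongs to both. A separate interval of 3736 bp stood inside Klf3 (total 32078, maximum 29), 460 bp from an end of the predicted gene Gm38457. The gene-end interval of Klf3 also met an end of Gm38457. This was the only case in which a member shared its gene-end interval with another protein-coding gene end. Chromosome 5 had a median maximum of 22 over its called regions, the lowest of the chromosomes with intervals, and an interval stood at an end of 63.2% of its genes, the highest share.

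The other CtBP-binding genes, Klf8 on the X chromosome and Klf12 on chromosome 14, had no interval at a gene end, over the gene or within 100 kb. Klf12 encodes a repressor of the AP-2 alpha gene. The X chromosome had gene-end intervals at 11.9% of its genes in all.

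Among the members described as activators, the interval of Klf2 covered the whole gene. Klf2, known for quiescence of endothelium under flow and of T cells, is 2593 bp long, at 72319062 to 72321654 on chromosome 8. Its interval of 5169 bp at 72318443 to 72323611 reached past both ends, with a total signal of 59870 (percentile 85.4) and a maximum of 49 (percentile 88.0). It began 619 bp upstream of the start and ended 4549 bp downstream. No other member was covered over its full length, and Klf4 came next at 58.7%.

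Klf4 combined a broad interval with a low maximum. The gene, at 55527137 to 55532475 on chromosome 4, had an interval of 5351 bp at 55529342 to 55534692. Its total signal was 54095 (percentile 82.0), but its maximum of 24 was at percentile 43.2, the lowest of the 10. The maximum divided by the mean signal per base, a measure of how sharp the coverage is, was 2.37, near the median of 2.49 over single-interval regions. Its maximum lay 347 bp upstream of the start.

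Klf5, a factor of proliferating crypt epithelium and of smooth muscle, had the lowest total signal of the 10. The interval covered the lower end of the gene (99298691 to 99313412 on chromosome 14), at 99297282 to 99300126, with a total of 25529 (percentile 41.5) and a maximum of 25 (percentile 45.8). The maximum lay 16 bp outside the gene. On chromosome 14 intervals marked the ends of 33.3% of genes, the lowest share of the chromosomes that hold a member, and its called regions had a median total of 23516 and a median maximum of 29. At Klf5 the total was thus above the chromosome's median and the maximum below it.

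Klf6, an early gene of injury and growth responses, had the narrowest interval of the 10, though not narrow for the list (percentile 57.5), with a sharp maximum. Its 2648 bp at 5860238 to 5862885, over the start of the gene at 5861489 to 5870393 on chromosome 13, held a total of 31472, which is only percentile 55.0, but a maximum of 56 at percentile 93.2. The maximum was 4.71 times the mean signal (percentile 96.7). Klf4 and Klf6 therefore stood in opposite orders by area and by height.

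Klf7, which acts in outgrowing neurons and in preadipocytes, had the highest maximum of the 10. It was 69 (percentile 97.8), with a total of 78501 (percentile 92.0), in the widest interval, at 64115651 to 64123494 on chromosome 1. At 6.89 times the mean signal it was also the sharpest of the 9 members with a mean signal (percentile 99.8). The gene spans 64029448 to 64122345, and the interval covered 7.21% of it. Its RefSeq promoter entry starts inside the gene span, at 64121389. The maximum lay 401 bp upstream of that start but still inside the gene span, 555 bp from its upper end.

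The 4 members that bind Sin3 all had totals at or above percentile 90.1 and maxima at or above percentile 84.9. Klf9, induced by glucocorticoid and thyroid hormone, had a total of 72663 and a maximum of 51 in its interval at 23140110 to 23144358, over the lower end of the gene (23141226 to 23168129, chromosome 19). Klf10, the TGF-beta-inducible early gene, had 99240 and 46 in an interval of 7164 bp at 38296428 to 38303591, over the upper end of the gene (38291464 to 38300711, chromosome 15). The outer bounds of its maximum were 1500 bp apart and included that gene end. In the other 9 members the bounds spanned at most 141 bp.

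Klf11, a second TGF-beta-inducible factor that also acts in pancreatic beta cells, had a total of 71658 and a maximum of 55 in 3545 bp at 24649447 to 24652991 (gene at 24651371 to 24662782, chromosome 12). Klf13, a regulator of the chemokine gene Ccl5 in T cells, had the highest total of the 10, 111891 (percentile 96.8), and a maximum of 54. Its interval of 5629 bp lay at 63935541 to 63941169, over the upper end of the gene at 63886351 to 63938915 on chromosome 7. Of the genes of that chromosome, 36.8% were so marked.

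Set side by side, the Sin3-binding members ran from 71658 to 111891 in total signal (median 85951.5) and the activator members from 25529 to 78501 (median 54095), overlapping only through Klf7. In maximum signal the ranges were 46 to 55 and 24 to 69. The mean signal per base was 13.8 to 20.2 in the former and 8.97 to 11.9 in the latter, with no overlap. Its median over single-interval regions was 11.4. The mean is the total divided by the deposited width, and some deposited intervals are shorter than the region called. This comparison was made after the values had been seen and was not tested. With the other Klf genes of these classes added, the separation by mean signal was lost through Klf1, an activator with a mean of 17.8. Klf16, which binds Sin3, had 12.9. Klf15 and Klf17 were placed in no class and are not in this comparison. In total signal the activator genes still ran from 25529 to 78501 and the 5 Sin3-binding genes with an interval from 71658 to 143211, with Klf14 without one. Klf3, of the CtBP-binding class, was in neither group, and it has no mean signal because its called region was deposited in pieces.

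**Figure D3:**
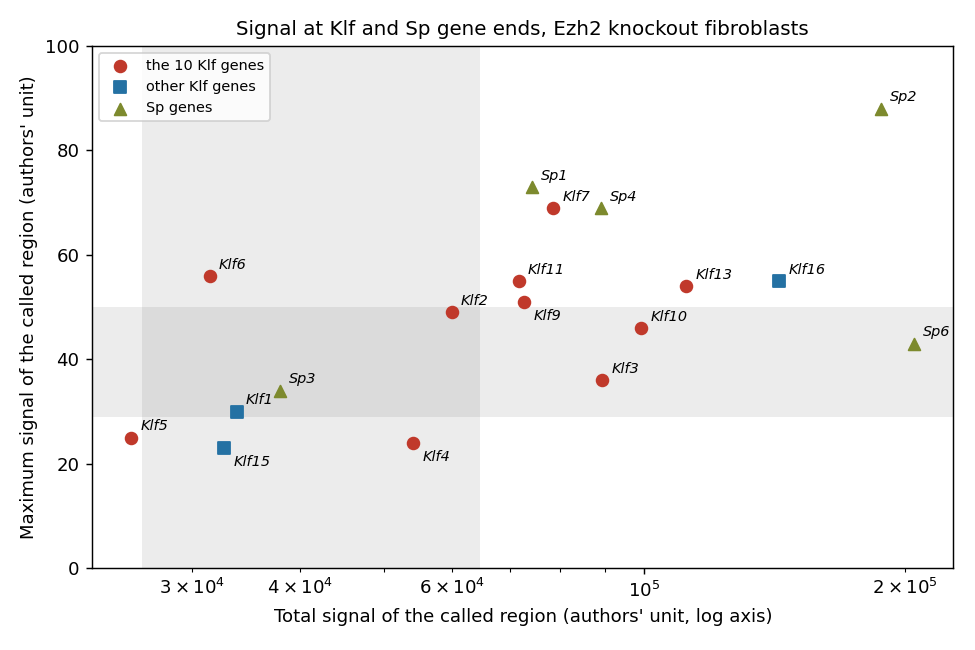
Total signal (log axis) against maximum signal, both in the authors' unit, of the called region at the gene end for the 10 Klf genes (circles), 3 other Klf genes (squares) and 5 Sp genes (triangles). Grey bands are the quartiles over protein-coding genes with a gene-end interval; Klf6 lies high for its total, Klf4 low, and Klf5 is at the lower left.

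In all 8 members with a start site the interval reached to both sides of it, by 619 to 2254 bp upstream and by 1396 to 5738 bp downstream. The maximum was upstream of the start by 134 bp at Klf11, 139 bp at Klf13, 167 bp at Klf2, 179 bp at Klf9, 225 bp at Klf6, 347 bp at Klf4 and 401 bp at Klf7. The median distance over all covered starts was 100 bp, with quartiles of 38 and 290 bp. All but Klf3 among the members were thus past the median. Klf4 and Klf7 were past the upper quartile, though the start used for Klf7 lies inside the gene span.

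Away from their starts the genes differed more. Within 100 kb of the 10 genes stood 33 intervals, of which 10 were those at the gene ends, 3 lay inside a member and 20 in the flanks. At least 1 interval within 100 kb was found for 77.0% of all protein-coding genes. The number per member was 7 at Klf2, 6 at Klf3, 5 at Klf10, 4 at Klf13, 3 at Klf6 and Klf11, 2 at Klf9 and 1 at Klf4, Klf5 and Klf7. The median was 3, equal to that over all protein-coding genes, while genes with a gene-end interval had a median of 6.

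Klf4, Klf5 and Klf7 were thus isolated, with the interval at the gene end as the sole one within 100 kb. This held for 3.50% of all protein-coding genes and for 7.39% of those with a gene-end interval. Around Klf4 the nearest other intervals were 178062 bp and 115952 bp away, and no other protein-coding gene lay within 100 kb. Around Klf7 the distances were 384436 bp and 101741 bp, also with no other gene within 100 kb. On the upper side of Klf5 the next interval was 2306661 bp away, the gap of rank 165 among 21739 gaps between neighbouring intervals, whose median was 21855 bp. Klf12 and Prr30 were the only protein-coding genes wholly in that gap. Klf5, which had an interval, thus bordered the gap that held Klf12, which had none.

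Klf9 had a strong neighbour. An interval of 4770 bp at 23133076 to 23137845 lay 3381 bp upstream of the gene, with a total of 99656 and a maximum of 53, both above those at the Klf9 start (72663 and 51). No other protein-coding gene end was nearer to it. On the other side no interval followed for 128401 bp.

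Klf13 was the member with most intervals inside the gene. They lay at 63910110 to 63913393 (total 36587, maximum 33) and at 63923876 to 63927097 (total 53238, maximum 42), and a flank interval lay 26000 bp from the gene with 27366 and 27. The second of these inner intervals had a higher total than the gene-end interval of Klf5 or Klf6. The annotated gene E030018B13Rik had its nearest end 3337 bp from that interval.

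At Klf2, 5 of the 6 flank intervals lay on the upstream side, and the highest of the 6 by total (61052, maximum 56) stood 75292 bp away at the adaptor gene Ap1m1. The interval nearest to Klf2 was 14776 bp upstream, with a total of 31505 and a maximum of 39. Both it and the next, 22001 bp upstream (24558 and 34), had Klf2 as the nearest protein-coding gene. At Klf3 the highest in the flanks by total, other than the upstream piece of its own called region, was another region in 2 pieces, 41591 bp beyond the gene, with 75579 and 46.

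Flank intervals of Klf6, Klf10 and Klf11 were weaker, in total and in maximum, than those at the gene ends. Klf6 had intervals 14734 bp (total 21640, maximum 22) and 56739 bp (16776 and 17) from the gene, both on the upstream side. Klf10 had 4, of which the highest by total, 33191 with a maximum of 22, lay 82726 bp away and the nearest 6623 bp away (20621 and 20). For Klf11 the highest by total (29051, maximum 23) stood 17175 bp away and within 1 kb of Cys1, and the other (27022 and 41) stood over an end of Grhl1. Of the 20 flank intervals 4 were within 1 kb of the end of another protein-coding gene. Which gene a flank interval acts on, if any, was not measured.

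**Figure D4:**
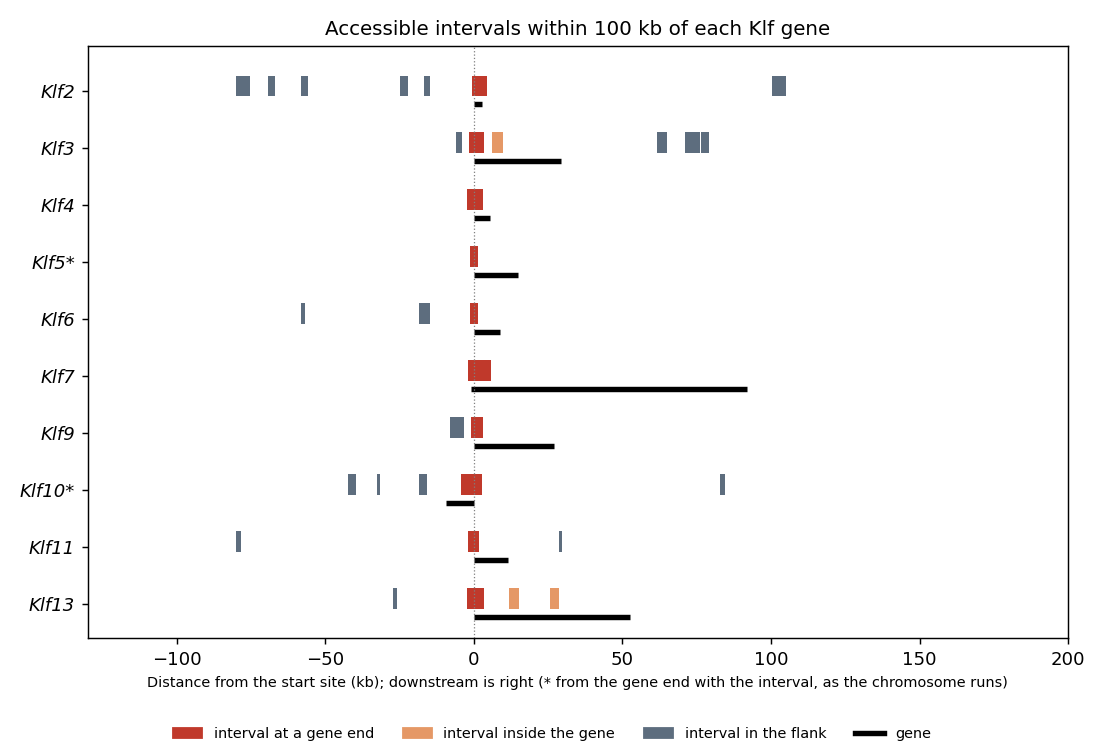
All 33 intervals within 100 kb of the 10 Klf genes, by distance in kb from the start site (red at a gene end, orange inside the gene, grey in the flank; black bars are genes; asterisks as the chromosome runs). Klf4, Klf5 and Klf7 show a single interval, while Klf2 shows 7.

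Of the other 7 Klf genes, 3 had a gene-end interval (42.9%, against 47.4% of all protein-coding genes). Klf16, a Sin3-binding factor on chromosome 10, had 143211 and 55 in the stronger of its gene-end intervals, above every member in total, in a neighbourhood with 24 intervals within 100 kb. Klf1, the erythroid factor, had 33796 and 30, and Klf15, a regulator of gluconeogenesis and muscle metabolism, had 32709 and 23. The maximum lay 1281 bp downstream of the start at Klf1 and 1120 bp downstream at Klf15. Both were further from a start than in any of the 8 members. Klf14 and Klf17, a gene of the early embryo, had no gene-end interval, nor had Klf8 and Klf12. Klf14 and Klf17 did have 2 and 7 intervals within 100 kb.

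The Sp genes encode the nearest relatives of the Klf proteins, with the same type of zinc fingers. Of 9, 5 had a gene-end interval (55.6%, against 47.4% of all protein-coding genes), namely Sp1 (total 74143, maximum 73), Sp2 (187594 and 88), Sp3 (37891 and 34), Sp4 (89025 and 69) and Sp6 (205184 and 43). Sp5, Sp7, Sp8 and Sp9 had none. Sp7 is the osteoblast factor osterix, and Sp8 and Sp9 act in the limb bud. The Sp6 interval did not hold the maximum of its called region, which was deposited in 4 pieces. That maximum lay 16884 bp from the nearest end of Sp6. The Sp2 total belongs to a called region in 2 pieces, with its maximum 5147 bp from the start. Sp1, Sp2 and Sp4 had maxima of 69 or more, a height that among the 10 Klf genes only Klf7 reached.

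Among partners and regulators of the family, 18 of 23 genes bore an interval at an end (78.3%, against 47.4% of all protein-coding genes), with a median total of 49077.5 and a median maximum of 45.5. Thra (179058), the thyroid hormone receptor gene, Map3k3 (176650), a kinase upstream of Klf2 and Klf4, Smad7 (153098), an inhibitor of TGF-beta signalling, and Ctbp1 (129686), the corepressor of Klf3, had the highest totals. The total at Map3k3 is that of a called region in 2 pieces at its far end, whose maximum lay 75675 bp from the start. Map3k3 also had an interval at the end that holds its start, with a signal not given here. The total at Smad7 belongs to a called region in 3 pieces. The corepressor genes Sin3a (125951) and Sin3b (25653) both had 1. Map2k5, Mef2a, Mef2c and Nr3c1 had an interval over the gene but none at its ends, and Thrb had none within 100 kb. The start sites of Map2k5 (63377902) and Mef2a (67372858) lie inside the gene span, outside the windows at the gene ends. Whether an interval covered those starts is not given here.

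The fibroblast label was set against marker genes. Of 14 fibroblast markers 12 had a gene-end interval (85.7%, against 47.4% of all protein-coding genes), and Thy1 and Pdgfra had none. The counts were 2 of 7 for epithelial (Krt8 and Cldn4), 2 of 6 for haematopoietic (Cd79a and Cd68), 2 of 6 for endothelial (Flt1 and Eng) and 1 of 4 for pluripotency markers (Sox2). Epcam, Ptprc, Pecam1, Pou5f1 and Nanog were among those without, though Pecam1, like Pdgfra, had 2 intervals over the gene. Krt8, Cldn4 and Cd79a had no interval over the gene itself, and the maximum at Krt8 and at Cldn4 was 13. Cd68 (total 108340, maximum 50), Flt1 (71520 and 33), Eng (70860 and 37) and Sox2 (41538 and 27) did have an interval over the gene. The 12 fibroblast markers had a median total of 58207 and a median maximum of 33, with Col1a2 lowest in both (17073 and 18). The markers thus did not separate cell types by signal. Ezh2 had an interval at its upper end, which does not check the knockout, since the sources used here do not give the deleted part.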

How the data were processed

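ATAC-seq was run on whole cells of 6 samples, per the labels' protocols. Per the submitters' processing notes, Bowtie2 2.2.9, deepTools, SEACR and mm10 were used, in no stated order and with no settings. The deposited list has no header, and its columns are read in SEACR's order: total signal is a score in a unit the authors do not name, and maximum signal is a coverage height that the authors deposited without a stated normalization. The calling threshold (lowest total signal 15316) has no stated setting, and whether and how replicates were joined is not given either in the sources used here. Of 19215 called regions, 2148 were deposited as 2 or more intervals with repeated values, so signals are given per called region and widths per interval. Mean signal per base was computed for 15770 regions deposited as 1 interval that holds its maximum. In 545 of these the mean exceeds the maximum, so some intervals are shorter than the region called.

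Genes, coordinates and promoters came from RefSeq tables on GRCm38.p6. All 10 members matched the gene table and 8 the promoter table, Klf5 and Klf10 having no entry. Where a gene had several promoter entries in the background, the entry of lowest coordinate was used. An overlap of 1 bp with a window of 1000 bp either side of a gene end counted. Percentiles give the share below a value, with ties at their middle. Unless stated otherwise, total and maximum signal were ranked among called regions and widths among 21835 deposited intervals. Sharpness was ranked among the 15770 regions deposited as 1 interval that holds its maximum. All members, the other Klf and Sp genes, the highest flank interval of each member and the ends of the partner list were named by rule. Members and lists were chosen with earlier results of these data known, and motifs and cofactor classes after the values had been seen. No test was run, since the list has 1 value per interval and no replicates. Python 3.11.15, numpy 2.4.6, pandas 2.3.3 and matplotlib 3.10.9 were used. The interval lookup was tested on simulated data and differed from a plain loop in 0 of 400 queries.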

Additional observations from a re-analysis of the deposited data

How the results depend on the processing

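The counts of 10 members with a gene-end interval and 10 with an interval over the gene held with windows of 500 and 2500 bp (first count only), with an overlap of 200 bp and with intervals that hold their maximum. Above the median total signal both were 9 (without Klf5), against 32.7% and 35.6% of all protein-coding genes. Above the upper quartile both were 8 (without Klf5 and Klf6), against 19.6% and 21.1%. The 33 intervals within 100 kb became 57 within 200 kb, 21 when limited to totals over the median and 14 over the upper quartile, since those settings add or remove intervals. The count was 26 to 32 under the other 3 alternatives. The median percentile of 90.2 was 84.5 among called regions at gene ends, 84.7 among deposited intervals and 88.8 by maximum signal. No paired analysis was possible because the list holds no value per replicate, and for the same reason no replicate could be left out. The depth is unknown, so a gene without an interval is only below the authors' threshold.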
